A study of Mus musculus with 2 samples.

Results

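Imprinted protein-coding genes were examined in long-read RNA sequencing of mouse hippocampus, whose tissue label reads "layer of hippocampus". The set held 10 genes, chosen by name: Snrpn, Snurf, Ndn, Nnat, Blcap, Peg3, Impact, Zrsr1, Cdkn1c and Ube3a. Of these, 9 had reads in both libraries, out of 18311 known genes with reads in either one. The tissue came from male B6CASTF1/J mice at 14 days of age, the first-generation cross of C57BL/6J with CAST/EiJ. Per the labels, each of the 2 libraries represents 3 males and 2 µg of input RNA, to which ERCC and SIRV spike-ins were added. They are replicates 1 and 2 of 1 group, so no contrast between conditions exists. The labels of the samples list separate animals, but a description shared by both lists 1 trio only, so their spread may reflect technical variation alone. No counts by parental allele were used, so nothing below says which allele a read came from.

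An imprinted gene is expressed mainly or only from the copy inherited from 1 parent, set by DNA methylation laid down in the egg or the sperm. Snrpn, Snurf, Ndn, Nnat, Peg3, Impact and Zrsr1 are known as paternally expressed genes. Cdkn1c is known as maternally expressed, Ube3a as maternally expressed in neurons and Blcap as maternally expressed in brain. Snrpn, Snurf, Ndn and Ube3a lie in the region whose loss causes Prader-Willi or Angelman syndrome in people. Many imprinted genes sit inside or beside another gene, so the exons that a read joins decide which gene it is counted for.

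The libraries held 821324 (replicate 1) and 743862 (replicate 2) mouse reads, and levels are given as counts per 1000000 of these (CPM). A long read stands for 1 cDNA molecule, so CPM was not divided by length. A gene with 0 reads could still have been present below 3 reads, a limit of 3.65 CPM (replicate 1) or 4.03 CPM (replicate 2). Summed markers of neurons (6735 and 6294 CPM) and astrocytes (3879 and 3655 CPM) were high in both libraries, and all 6 hippocampal markers had reads (707 and 977 CPM). The summed myelinating oligodendrocyte markers stood at 5708 CPM in replicate 1 and 2855 CPM in replicate 2. Choroid plexus markers were at 197 and 90.1 CPM, with Aqp1 and Prlr at 0 reads in both. In such bulk tissue, fewer cells of a type and less RNA per cell cannot be told apart.

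The Snurf coding sequence is shown first because 2 coding sequences share the same transcript. Snurf-201 (ENSMUSG00000102627.1, chr7:59995449-60005049, minus strand, mm10) consists of 3 exons and encodes the 71-codon SNURF protein. These exons lie within the first exons of Snrpn-201, the main Snrpn transcript. Its coding sequence follows, from the GENCODE M21 transcripts, with the 14 bases encoded by the first exon in capitals.
Snurf coding sequence: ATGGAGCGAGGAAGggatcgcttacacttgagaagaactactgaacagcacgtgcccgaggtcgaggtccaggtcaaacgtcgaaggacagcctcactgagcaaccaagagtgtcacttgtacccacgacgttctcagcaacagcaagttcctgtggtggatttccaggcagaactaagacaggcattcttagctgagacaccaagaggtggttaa
The capitals hold the start codon, so a read that begins at an upstream first exon and skips this exon lacks it.

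The windows upstream of the RefSeq start sites of Snrpn are shown next, because the reads below used start sites far apart. Each is the 250 bases before a RefSeq start (GRCm38.p6, the same assembly as mm10), read along the minus strand of chromosome 7. These starts match those used by the reads only in part. The first exon of Snrpn-202 had 1 read, and a start 212 kb upstream has no window. Models with the canonical first exon began at 60005111 at the farthest, downstream of the RefSeq start at 60005199. Capitals mark CACGCATGCGT, an 11-base run around the core CGCATGCG that was noticed when the windows were read.
Canonical, chr7:60005200-60005449: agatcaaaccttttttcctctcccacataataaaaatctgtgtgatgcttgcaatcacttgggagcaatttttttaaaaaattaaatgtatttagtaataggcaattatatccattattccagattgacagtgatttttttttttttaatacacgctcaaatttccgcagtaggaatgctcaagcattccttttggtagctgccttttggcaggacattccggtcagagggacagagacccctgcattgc
Upstream at 42.9 kb, chr7:60047979-60048228: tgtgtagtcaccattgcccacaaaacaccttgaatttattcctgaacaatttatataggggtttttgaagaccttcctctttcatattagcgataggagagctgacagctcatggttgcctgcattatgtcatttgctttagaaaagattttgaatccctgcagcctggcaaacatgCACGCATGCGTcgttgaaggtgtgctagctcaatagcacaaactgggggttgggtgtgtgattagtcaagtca
Snrpn-202, chr7:60140226-60140475: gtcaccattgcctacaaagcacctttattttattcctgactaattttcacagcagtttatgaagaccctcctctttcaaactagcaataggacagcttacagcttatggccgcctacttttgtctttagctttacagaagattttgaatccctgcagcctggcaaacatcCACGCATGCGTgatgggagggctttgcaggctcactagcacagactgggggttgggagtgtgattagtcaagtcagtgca
Upstream at 445 kb, chr7:60450178-60450427: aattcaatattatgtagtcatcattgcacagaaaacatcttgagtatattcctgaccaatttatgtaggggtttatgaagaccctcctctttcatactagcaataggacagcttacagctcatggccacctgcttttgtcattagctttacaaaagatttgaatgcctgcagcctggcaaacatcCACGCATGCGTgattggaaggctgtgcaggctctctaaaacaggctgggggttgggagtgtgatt
The 3 upstream windows were 76.7% to 79.8% identical to one another in global alignment, and 49.5% to 53.2% identical to the canonical window. CACGCATGCGT stood 65 to 80 bases before the start in all 3 and was not in the canonical window. On either strand it was present in 22 of 32851 RefSeq windows of this length (0.0670%), 3 of them these and 1 a window of Snhg14. Since the run was picked from these windows, its rarity is a description only. The longest run shared by the 3 upstream windows was another, CCTGCAGCCTGGCAAACAT, of 19 bases. The core CGCATGCG alone was in 1.55% of windows, the window of Ndn among them. None of the 4 windows held the ZFP57 hexamer TGCCGC or the YY1 core GCCATNTT on either strand. These were in 8.68% and 3.91% of all windows. Between 2 and 4 CpG pairs fell in each Snrpn window, against a median of 6 over all windows. A match describes letters only and does not show binding. Bases downstream of each start, the first exon and intron among them, were not searched.

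Snrpn (ENSMUSG00000102252.5, chr7:59982495-60140219, minus strand) encodes SmN, the neuronal form of the core spliceosome protein SmB. It was the most abundant of the 10 genes, at 1809 CPM in replicate 1 (1486 reads) and 1512 CPM in replicate 2 (1125 reads). The mean of 1661 ± 210 CPM (SD, n = 2) placed it 31st among all genes. Snrpb, its ubiquitously expressed relative that encodes SmB, had 109 and 102 reads. In replicate 1 Snrpn held 93.2% of the summed reads of the pair, with a Wilson 95% interval of 91.8 to 94.3. Its share in replicate 2 was 91.7% (90.01 to 93.1). Intervals here and below cover counting error only.

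**Figure D1:**
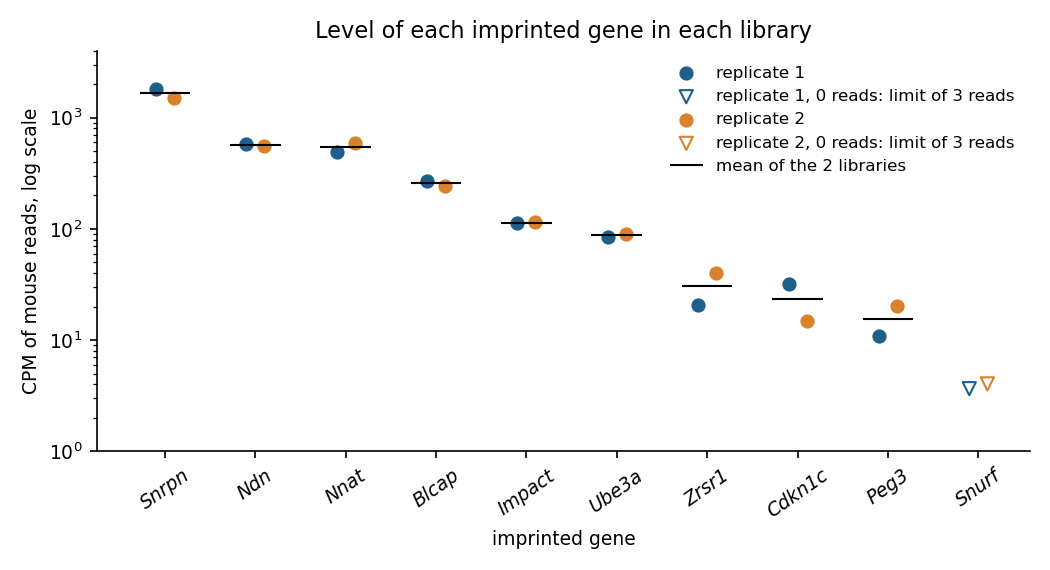
Level of each imprinted gene in each library, as CPM of mouse reads on a log axis. Points are libraries, bars are means of 2, and open triangles mark the limit of 3 reads where a gene had none. Snrpn lies highest at 1809 and 1512 CPM, and Snurf had 0 reads in both.

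No read was assigned to Snurf in either library. Reads on its strand over its exons numbered 1462 and 1108, and every one of them was assigned to Snrpn. Of the Snrpn reads, 1266 of 1486 (85.2%) and 951 of 1125 (84.5%) held both Snurf introns, a mean of 84.9% ± 0.468 (SD, n = 2). The start codon of Snurf was covered by 85.5% and 85.3% of them. All introns of the Snrpn coding region were also spliced, beside both Snurf introns, in 84.6% and 84.3%. Most Snrpn reads thus spanned both coding sequences, and the deposited gene count of 0 describes assignment and not absence of the sequence.

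A further 12.2% of spliced Snrpn reads in each library began at exons far upstream (178 of 1463 and 135 of 1103, mean 12.2% ± 0.0513). The count excludes incomplete matches. Of these, 174 and 132 held all introns of the Snrpn coding region (97.8% in both libraries). None held the Snurf start codon, which is 0 of 178 (upper 95% limit 2.11%) and 0 of 135 (2.77%). The 174 and 132 reads thus joined the SmN coding exons without the start codon of SNURF. In 4 and 2 Snrpn reads only upstream exons were present, with no exon of Snrpn-201.

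There were 12 such upstream first exons, 8 of them with reads in both libraries, and the 6 with at least 5 reads held 304 of the 313 reads. The nearest abundant one, 42.9 kb upstream, held 70 reads (4.78%) in replicate 1 and 61 (5.53%) in replicate 2, beside the RefSeq start at 60047978. The next in abundance lay 212 kb upstream, with 51 reads (3.49%) and 31 (2.81%), and had no RefSeq start within 100 bases. An exon 445 kb upstream, beside the RefSeq start at 60450177, held 22 reads (1.5%) and 19 (1.72%). By share, the 6 exons ranked in the same order in both libraries. The exon 166 kb upstream held 15 and 16 reads. Exons at 92.5 kb (6 and 2 reads) and 581 kb (8 and 3 reads) were rarer. Of the upstream reads, 172 began upstream of the annotated 5′ end of Snrpn in GENCODE M21. Snrpn-202, the annotated upstream transcript, had 0 reads, and its first exon had 1 read in replicate 1.

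**Figure D2:**
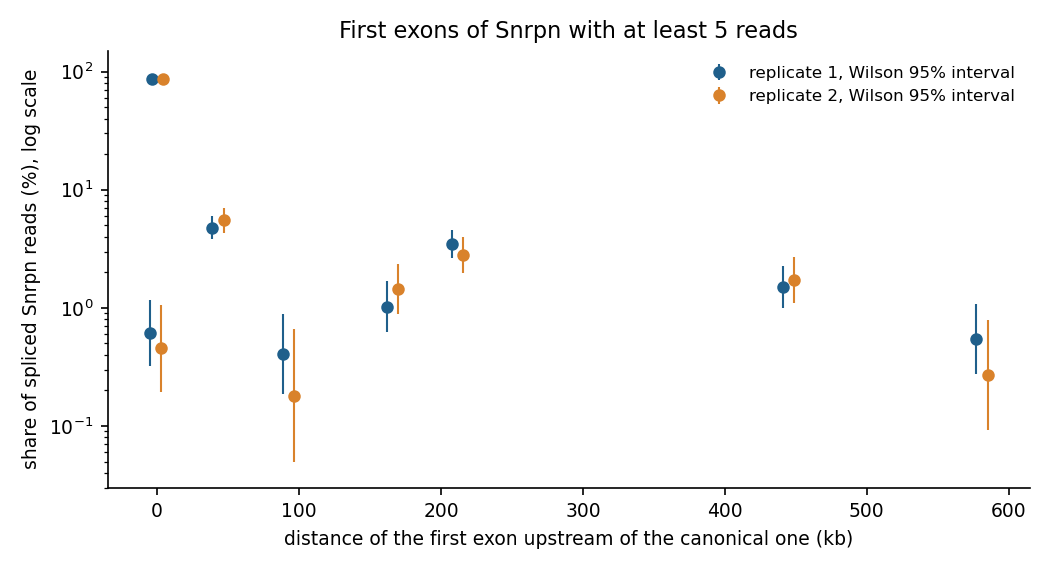
Share of spliced Snrpn reads that began at each first exon with at least 5 reads, on a log axis, against its distance upstream of the canonical first exon in kb. Points are libraries with Wilson 95% intervals. The canonical exon held 86.8% and 86.9%, and the intervals of the 2 libraries overlap at every exon.

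The upstream starts differed in the exons that followed. From the 42.9 kb start, 64 and 55 reads spliced straight to the second exon of Snrpn-201. Starting at 212 kb, 45 and 24 reads passed through a 148-base exon (chr7:60132250-60132397, annotated as part of Snrpn-202) and a 104-base exon (chr7:60071885-60071988, not in GENCODE M21). The 166 kb start used the same pair of exons in 15 and 14 reads. The starts at 166 and 212 kb thus shared a middle pair of exons. Both exons lie upstream of the 42.9 kb start, so reads from that start could not hold them. Over all upstream-start reads, the 104-base exon was held by 58.4% in replicate 1 and 53.3% in replicate 2, and the 148-base exon by 55.1% and 49.6%. Of these 178 and 135 reads, 70 and 61 began at the 42.9 kb start, downstream of both exons. The shares thus depend on the starts used and are not rates of exon inclusion. Of all upstream-start reads, a 228-base exon at chr7:60257685-60257912 was held by 16.9% and 16.3%. A 227-base exon at chr7:60401677-60401903 was held by 15.2% and 15.6%. Most upstream-start reads began downstream of these exons and could not hold them. Among reads that held the 227-base exon or spliced across it, 27 held it and 3 did not in replicate 1 (90%). In replicate 2, 21 held it and 0 did not (100%). Each pair of shares lay within overlapping Wilson intervals.

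Snrpn was the 1 gene of 9 tested that passed the test between the libraries. Reads of a gene and the remaining mouse reads were compared by a two-sided Fisher's exact test. The p-values were adjusted by the Benjamini-Hochberg method over 8875 genes with at least 20 reads. It compares these 2 libraries and not conditions, and it counts no variation between animals. Over all genes, 140 passed, or 1.58%, of which 0.744% were higher and 0.834% lower in replicate 2. Snrpn was lower in replicate 2, with a log2 ratio of -0.26 (adjusted p = 0.000963), beside a median log2 ratio of 0.01 over all genes tested. Canonical-start reads went from 1546 to 1288 CPM and upstream-start reads from 217 to 181 CPM. The share of the canonical first exon was 86.8% in replicate 1 and 86.9% in replicate 2 (adjusted p = 1). Of the cell type markers tested, 2 of 6 for neurons, 5 of 5 for myelinating oligodendrocytes, 1 of 5 for astrocytes and 1 of 1 for choroid plexus were also called lower in replicate 2. For hippocampus, 2 of 6 were called higher, and no microglial, endothelial or meningeal marker was called. Their part in the Snrpn difference was not tested.

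Of the other 8 genes tested, none passed. Unadjusted p-values were under 0.05 for 4 of the 9 genes (Snrpn, Nnat, Zrsr1 and Cdkn1c), against 911 of 8875 genes. The median log2 ratio of the 9 was 0.03. The shares of the leading transcript (5 of the genes tested), the leading first exon (4 tested) and internal exons (9 tested in these genes) gave 0 calls and 0 unadjusted p-values under 0.05. The same tests called 0.171% of genes, 0.108% of genes and 0.0439% of exons across the libraries.

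Ndn (ENSMUSG00000033585.5, chr7:62346569-62350262, plus strand) encodes necdin, a MAGE family protein of postmitotic neurons. Its level was 582 CPM in replicate 1 and 557 CPM in replicate 2, a mean of 569 ± 18 CPM (SD, n = 2) and the 176th of all genes. The log2 ratio was -0.06 (adjusted p = 0.937). Ndn has no intron, and all 478 and 414 reads were assigned to the annotated single-exon transcript Ndn-201 of 3694 bases.

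The necdin neighbour Magel2, also imprinted, had 2 and 3 reads. Other MAGE genes, which are not known as imprinted, differed widely. Maged1, the most abundant of the family here, had 519 and 516 reads, and Maged2 had 91 and 84. Magee1 had 95 and 78 reads, Nsmce3 had 71 and 53, and Mageh1 had 22 and 15. Ndn held 37.4% of the summed reads of these 7 genes in replicate 1 and 35.6% in replicate 2, beside 40.6% and 44.4% for Maged1.

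Nnat (ENSMUSG00000067786.16, chr2:157560078-157562522, plus strand) encodes neuronatin, a small membrane protein of the endoplasmic reticulum in developing brain. It lies inside an intron of Blcap, which runs on the opposite strand. The long form, Nnat-202, has 3 exons and 81 codons, and the short form, Nnat-205, skips exon 2 and has 54 codons. Exon 2 (chr2:157561213-157561293) is 81 bases long, so leaving it out keeps the reading frame.

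Nnat had 407 reads in replicate 1 (496 CPM) and 436 in replicate 2 (586 CPM), a mean of 541 ± 64.1 CPM (SD, n = 2). The values of the 2 libraries did not differ past the threshold (log2 ratio 0.24, adjusted p = 0.296). The short form was the larger part of the spliced reads. Nnat-205 held 175 of 216 reads (81%) in replicate 1 and 149 of 191 (78.0%) in replicate 2, and Nnat-202 held 35 and 36. Exon 2 was held by 36 of 212 reads in replicate 1 (17.0%, interval 12.5 to 22.6) and by 36 of 189 in replicate 2 (19%, 14.1 to 25.2). The mean inclusion was 18% ± 1.46 (SD, n = 2), and the libraries did not differ past the threshold (adjusted p = 1). A donor 5 bases earlier, as in Nnat-208, was used in 3 and 1 reads, and a donor that leaves 27 bases of the exon, as in Nnat-210, in 1 and 0.

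A large part of the Nnat reads was in single-exon models. Reads of the genomic class, whose models matched no annotated splice pattern, made up 46.7% in replicate 1 (interval 41.9 to 51.5) and 56.2% in replicate 2 (51.5 to 60.8). Over all known genes this class held 6.49% and 7.82% of reads. All of the Nnat reads of this class came from 2 single-exon models in each library, the larger with 178 reads in replicate 1 and 227 in replicate 2. Both of these larger models overlap the last exon of Nnat-205 (chr2:157561542-157562504). They begin at 157561516 in replicate 1 and 157561239 in replicate 2. Model ends are not the ends of single reads, so cDNA cut short within the last exon cannot be told from unspliced RNA. With annotated transcripts only, the Nnat mean was 259 CPM and its log2 ratio -0.04 (adjusted p = 1). The direction of its difference thus rested on the genomic-class reads.

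**Figure D3:**
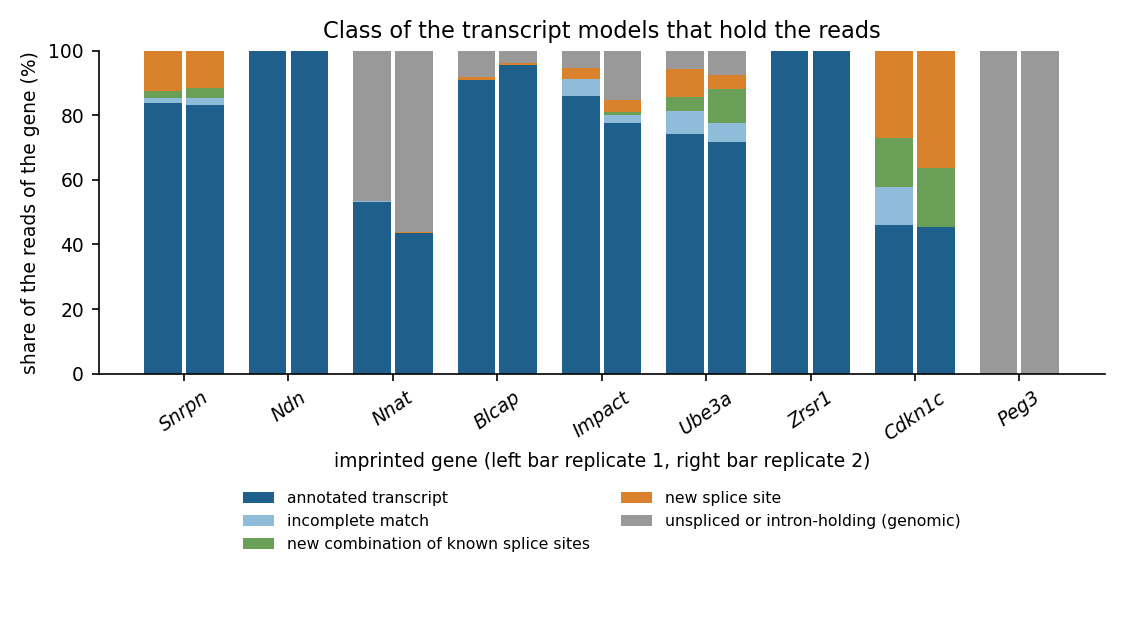
Share of the reads of each gene by class of transcript model, in percent, with the left bar for replicate 1 and the right bar for replicate 2. Ndn and Zrsr1 are wholly annotated, Peg3 is wholly genomic, and Nnat has 46.7% and 56.2% in the genomic class.

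Blcap (ENSMUSG00000067787.10, chr2:157556362-157571274, minus strand) encodes a small protein first described as reduced in bladder cancer. It had 222 reads in replicate 1 (270 CPM) and 181 in replicate 2 (243 CPM), a mean of 257 ± 19.1 CPM (SD, n = 2) with a log2 ratio of -0.15 (adjusted p = 0.830). Blcap-202, with 2 exons, held 96.6% and 94.8% of the complete reads. The annotated transcripts Blcap-201 and Blcap-202 differ in the first exon and share the 87-codon coding sequence, and Blcap-201 had 4 and 8 reads. Blcap-205 and Blcap-206, annotated with a start farther upstream, had 0 reads in both libraries. Introns of 203 and 174 Blcap reads spanned Nnat. Opposite-strand reads over Blcap exons, all of them Nnat reads, numbered 190 and 18. This gap followed the ends given to the single-exon Nnat models, which reached Blcap exons for 190 reads in replicate 1.

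Ube3a (ENSMUSG00000025326.12, chr7:59228750-59311536, plus strand) encodes the E3 ubiquitin ligase lost in Angelman syndrome. Its level was 85.2 CPM in replicate 1 (70 reads) and 90.1 CPM in replicate 2 (67 reads), a mean of 87.6 ± 3.42 CPM (SD, n = 2) and a log2 ratio of 0.08 (adjusted p = 1). Ube3a-201, which encodes the 849-codon form, held 37 of 61 complete reads (60.7%) and 40 of 58 (69.0%). Ube3a-203, which encodes 870 codons, had 7 and 4 reads, and the unspliced Ube3a-205 had 8 and 3. The coding bases that the longer form adds before the start codon of Ube3a-201 are shown here, with the 20 bases that come from its alternative exon in capitals (chr7:59243450-59247215, read from 2 exons).
Ube3a amino-terminal extension: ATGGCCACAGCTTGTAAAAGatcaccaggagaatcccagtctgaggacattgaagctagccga
The 120-base exon with that start codon (chr7:59243350-59243469) was held by 15 of 55 informative reads in replicate 1 (27.3%) and 11 of 55 in replicate 2 (20.0%), with adjusted p = 1. A second optional exon of 67 bases (chr7:59240967-59241033) was held by 12 of 55 (21.8%) and 4 of 55 (7.27%), which did not pass the test (unadjusted p = 0.0558, adjusted p = 1). The main first exon held 50 of 53 and 51 of 54 spliced reads.

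**Figure D4:**
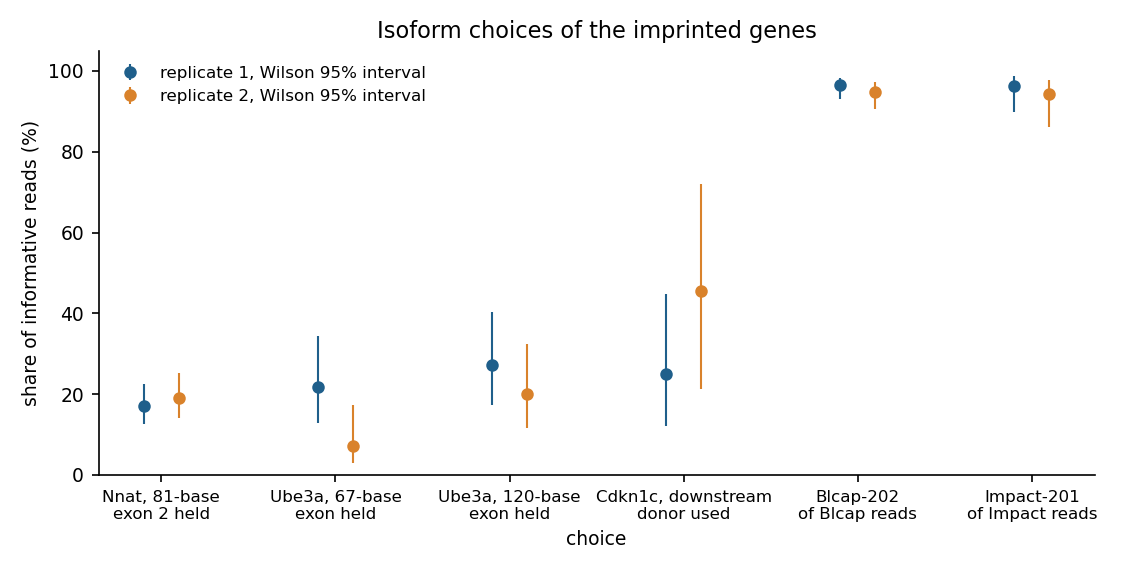
Share of informative reads, in percent, with an optional exon or splice site in Nnat, Ube3a and Cdkn1c, and the share of the leading transcript in Blcap and Impact. Points are libraries with Wilson 95% intervals, which overlap within every pair. Nnat exon 2 was held by 17.0% and 19%.

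Reads on the strand opposite to Ube3a overlapped its exons in 34 and 36 cases, beside 71 and 67 on its own strand. Of these, 22 and 28 were assigned to 9330162G02Rik, an annotated locus on the minus strand (chr7:59223847-59254788). A further 8 and 4 were assigned to Snhg14, the long noncoding RNA that continues from Snrpn towards Ube3a and is known to silence paternal Ube3a in neurons. Snhg14 as a whole had 10 and 8 reads, and Gm44560 and models of no known gene held the rest. Impact also had opposite-strand reads, 20 and 33 over its exons, all in models of no known gene. Snrpn had 17 and 12 such reads.

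**Figure D5:**
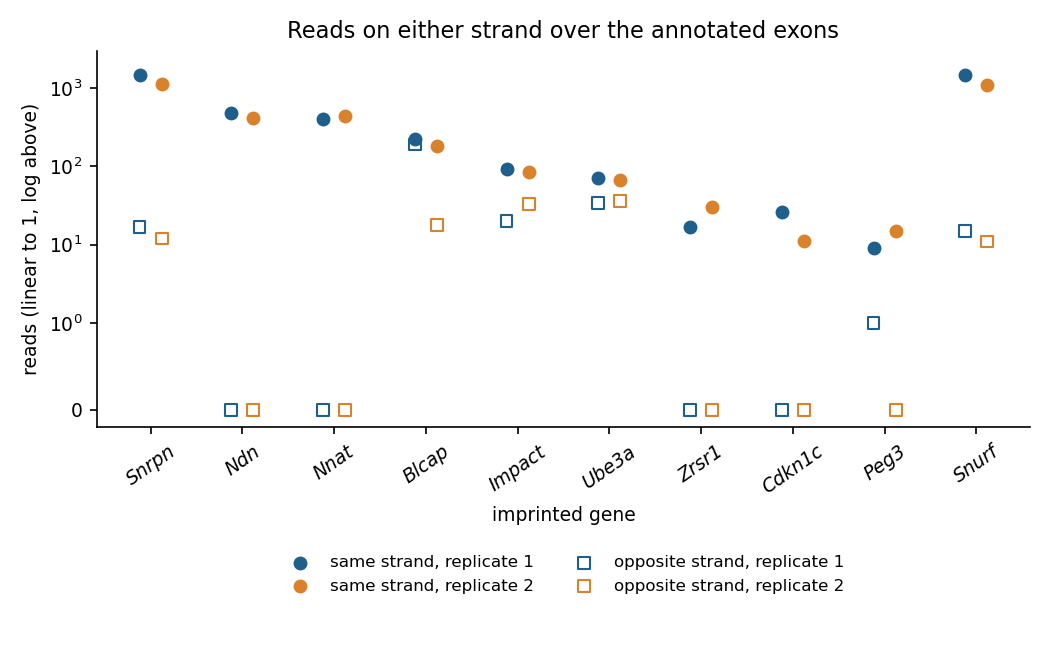
Reads over the annotated exons of each gene on its own strand (filled circles) and the opposite strand (open squares), on an axis linear up to 1 and logarithmic above. The same-strand points of Snurf are reads assigned to Snrpn. Ube3a and Impact have 20 to 36 opposite-strand reads in each library, and Ndn, Nnat, Zrsr1 and Cdkn1c have 0.

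Impact (ENSMUSG00000024423.6, chr18:12955852-12992950, plus strand) encodes an inhibitor of GCN2, the kinase that lowers translation when amino acids run short. It had 92 reads in replicate 1 (112 CPM) and 85 in replicate 2 (114 CPM), a mean of 113 ± 1.59 CPM (SD, n = 2), with adjusted p = 1. The 11-exon transcript Impact-201 held 79 of 82 complete reads (96.3%) and 66 of 70 (94.3%), and all of these 82 and 70 reads began at 1 first exon. Genes of the GCN2 pathway were measured beside it. Eif2ak4, which encodes GCN2, had 12 and 9 reads, and Gcn1l1, its activator, had 38 and 17. The target subunit Eif2s1 had 79 and 50 reads, and the effector Atf4 had 54 and 31. The phosphatase subunits Ppp1r15a and Ppp1r15b had 32 and 39 and 22 and 23 reads. None of these 6 genes passed the test between the libraries.

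The remaining genes were low. Zrsr1 (ENSMUSG00000044068.7, chr11:22972005-22976496, plus strand), an intronless copy of the splicing factor gene Zrsr2, lies in an intron of Commd1 and had 17 reads in replicate 1 (20.7 CPM) and 30 in replicate 2 (40.3 CPM). Its log2 ratio of 0.94 did not pass (adjusted p = 0.388), and Zrsr2 had 35 and 35 reads. The annotated coding transcript of 4492 bases held 14 and 17 reads, and a shorter noncoding one of 3282 bases held 3 and 13. The shorter one lies within the coding one and shares its 3′ end at 22976496. Coding transcripts read short at the 5′ end thus cannot be told from the noncoding one. Introns of 16 and 20 Commd1 reads spanned the gene on the other strand. Zrsr1 and Zrsr2 are close in sequence, so their assignment is uncertain to that extent.

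Cdkn1c (ENSMUSG00000037664.13, chr7:143458339-143461050, minus strand) encodes p57, an inhibitor of cyclin-dependent kinases and of proliferation. It had 26 reads in replicate 1 (31.7 CPM) and 11 in replicate 2 (14.8 CPM), a mean of 23.2 ± 11.9 CPM (SD, n = 2). The log2 ratio of -1.06 did not pass (adjusted p = 0.407). Of its relatives, Cdkn1a (p21) had 8 and 5 reads and Cdkn1b (p27) had 0 and 1. The reads used 2 donors in the coding exon, which are 36 bases apart. The 36 bases kept by the downstream donor (chr7:143459759-143459794) were:
Cdkn1c segment between the donors: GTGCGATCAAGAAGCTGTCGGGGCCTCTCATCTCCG
The donor that keeps them was used by 6 of 24 reads in replicate 1 (25.0%) and 5 of 11 in replicate 2 (45.5%), with intervals of 12 to 44.9 and 21.3 to 72.0 that overlap. At the first intron, the acceptor at 143460678 was used by 9 and 7 reads, the one 3 bases further in by 6 and 4, and the one at 143460716 by 4 and 0.

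Peg3 (ENSMUSG00000002265.16, chr7:6703892-6730431, minus strand) encodes a large zinc finger protein linked to maternal behaviour and growth. It had 9 reads in replicate 1 (11.0 CPM) and 15 in replicate 2 (20.2 CPM), a mean of 15.6 ± 6.51 CPM (SD, n = 2), and a log2 ratio of 0.85 that did not pass (adjusted p = 0.713). None matched an annotated transcript. All were single-exon reads of the genomic class at the 3′ end, in models that end at chr7:6703892, the annotated end of the gene. The annotated full-length transcript spans 8694 bases in 9 exons, encodes 1571 codons and had 0 reads. A missing full-length read at this depth is not evidence that the transcript is absent.

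By CPM, the order was Snrpn, Ndn, Nnat, Blcap, Impact, Ube3a, Zrsr1, Cdkn1c and Peg3, with Snurf at 0 reads. Between neighbours, the values of the 2 libraries overlapped for Ndn and Nnat, and for Zrsr1, Cdkn1c and Peg3. Per kilobase of the leading annotated transcript (CPM per kb), Snrpn stood at 860 and Nnat at 472, above Ndn at 154 and Blcap at 125. Impact stood at 30.1, Ube3a at 17.8, Cdkn1c at 12.2, Zrsr1 at 6.79 and Peg3 at 1.79. Dividing by length thus put Nnat (432 and 511) above Ndn (158 and 151), while Cdkn1c (16.7 and 7.78) and Zrsr1 (4.61 and 8.98) overlapped. As reads stand for cDNA molecules, levels elsewhere were not divided by length, and the per-kb order depends on the lengths chosen. The transcript lengths used were 1932 bases for Snrpn, 1146 for Nnat and 3694 for Ndn. The RefSeq start of Ndn lies inside its transcript, so a length counted from there would be shorter and the Ndn value higher. For Peg3 the longest annotated transcript was used, although it had no reads.

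Among 69 other imprinted genes, outside the Gnas and Dlk1-Meg3 loci, 67 were in the annotation and 55 had reads. Of 25 with enough reads to test, 0 passed between the libraries and 0 had an unadjusted p under 0.05. Over all 8875 genes tested, 140 passed (1.58%) and 911 had an unadjusted p under 0.05. The median log2 ratio of the 25 was 0.01, equal to that of all genes at 2 decimals. The 8 most abundant were Cd81 (1419 ± 45.2 CPM), Nap1l5 (273 ± 27.0), Rasgrf1 (181 ± 25.3), Bcl2l1 (170 ± 27.0), H13 (126 ± 9.24), Inpp5f (115 ± 16.3), Trappc9 (111 ± 23.2) and Nap1l4 (79.2 ± 1.69), each mean ± SD with n = 2. Snrpn was above all of these. The genes were listed by name, and whether each is imprinted in hippocampus, or for every transcript, was not examined. Snhg14 of the same region as Snrpn stood at 11.5 ± 1.00 CPM.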

How the data were processed

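The authors deposited raw read counts per transcript model for each of 2 libraries, with no normalization, on mm10 with GENCODE M21, per the file headers and the labels. Other columns of the deposited tables hold the exon number and length of each model (whole-number counts and scores). For the aligner and transcript caller, names and versions were not given in the sources used here. A class marks each model as annotated, an incomplete match, a new joining of known sites or a model with a new site. Other classes are genomic (matching no annotated splice pattern), antisense and intergenic.

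Reads of all sense models of a gene were summed and divided by the mouse reads, without ERCC. Means carry SD (n = 2), shares carry Wilson 95% intervals, and log2 ratios are replicate 2 over replicate 1 with 0.5 reads added. Fisher's exact tests (scipy 1.17.1), with Benjamini-Hochberg adjustment over all features and a threshold of 0.05, were run on genes with at least 20 reads and on leading transcripts, leading first exons (grouped by splice donor) and internal exons with at least 20 reads in each library. With 1 library against 1, no count model with replicates could be fitted. The scripts were tested on simulated data. The genes and lists were chosen with earlier results of these data known, and named genes are all 10 genes, genes sharing their span with reads, close family members and the 8 most abundant other imprinted genes. Start site windows, their identity (Biopython 1.88) and motifs came from RefSeq. Alternatives were the models counted, filters on reads and library sizes from edgeR 4.0.16 (TMM) and DESeq2 1.42.0.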

Additional observations from a re-analysis of the deposited data

How the results depend on the processing

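Of 100 recomputed values for 26 results, 12 moved and 0 reversed a called direction. Among the ratios of single genes only that of Snrpn was called, so only its direction could have reversed. A level was taken to have moved when it differed by more than 1 SD between the libraries, a count when it changed by over 1.5 times, and a tested ratio when it crossed the threshold. With 2 libraries, leaving 1 out never shifts a mean by more than 1 SD, so such levels could not count as moved. Without replicate 1 the Cdkn1c level was 14.8 CPM, against a mean of 23.2. Counting annotated transcripts only lowered the summed level of the 10 genes from 3298 to 2654 CPM, the genes called between the libraries from 140 to 73, and the genes called for their leading transcript from 8 to 1. These counts include fewer reads and fewer genes tested. For internal exons, leaving out incomplete matches gave 4 calls and a minimum of 10 reads gave 0, against 1. The cause was not tested. Snrpn passed as lower in replicate 2 under every filter, library size and model choice tried for the gene test, with log2 ratios from -0.31 to -0.26. Impact changed sign with DESeq2 size factors (-0.03) and with annotated transcripts only (-0.11), and Nnat with the latter (-0.04), none of them called. Leaving out 1 replicate gave a summed level of 3178 to 3418 CPM. Levels with annotated transcripts only were 1388 CPM for Snrpn, 92.5 for Impact, 63.9 for Ube3a, 10.7 for Cdkn1c and 0 for Peg3. No paired analysis was possible because the 2 libraries form 1 group. With 2 libraries and few reads for Peg3, Cdkn1c and Zrsr1, differences of moderate size could go undetected, and the ends of models do not give the ends of single reads.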
